A study of Mus musculus with 8 samples.

Results

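The sarcomere is the contractile unit of skeletal and heart muscle, and its proteins come in isoforms that differ between fast fibres, slow fibres, atria and ventricles. A list of 32 such genes was followed in perivascular fat dissected from the thoracic aorta of mice. The list was fixed by gene name, and each gene was represented by its brightest probe set among those that the array annotation gives to it alone. By this rule 31 of the 32 genes were measured, out of 18782 genes in all. Myh6, the alpha myosin heavy chain of the heart, shares its probe set with Myh7 and was not analysed here. The members fell into 11 fast isoforms, 5 slow isoforms, 6 genes shared by striated muscles, 5 measured heart genes and 4 genes of atrial muscle.

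Adipose tissue contains no sarcomeres of its own, and thoracic perivascular fat of mice resembles brown fat. Skeletal and heart muscle lie near it in the chest. In the mouse, atrial-type heart muscle also reaches into the walls of the pulmonary veins. Thick filaments are built of myosin heavy and light chains, and thin filaments of actin with troponins C, I and T, which pass the calcium signal on. Titin and nebulin act as a spring and a ruler of the filaments. The isoforms expressed can therefore point to the type of muscle, although some are shared between types and some are made by other tissues.

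The study compared 4 arrays labelled RictoraP2KO with 4 control arrays of genotype Rictorfl/fl, from male mice of 17 to 22 weeks that were starved overnight and killed at 9 am. In the first group Rictor, the defining subunit of mTOR complex 2, was targeted in cells that use the aP2 (Fabp4) promoter, which the series title describes as fat and brain. The fat was frozen once the aorta had been cleaned, per the labels' protocols. No label says that each sample is a separate animal, so the spread behind each p-value is that of these samples, which may be technical. Values are log2 RMA signals, where a step of 1 is a doubling, and the median signal of every array was 3.76. A value is compared only with values of the same gene, and differences are RictoraP2KO minus control. Per-array values are given in the order of replicates 1, 2, 3 and 4, as mean ± SD (n = 4 per group) where averaged. The number of arrays limits the precision.

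All 8 arrays carried the brown fat genes: Ucp1, which encodes the uncoupling protein, ran from 11.42 to 12.01 in RictoraP2KO arrays and from 11.32 to 11.87 in control arrays. The Rictor signal was 6.80, 6.66, 6.60 and 6.68 in RictoraP2KO arrays and 6.49, 6.56, 6.49 and 6.61 in control arrays. The difference of 0.14 (SE 0.0632, limma adjusted p = 0.685) goes against the direction of the label, and it is not known which exons the probes cover, so each group below is the one the labels name. Several arrays carried signal of other tissues. The mean of 7 lung epithelial genes, each centred on its mean over the 8 arrays, was 2.59 for control replicate 2, while the others ran from -0.53 to -0.23. The same measure over 10 neuron genes was 1.24 in control replicate 3 and between -0.32 and -0.10 elsewhere. For 7 lymphocyte genes it was 0.91 in RictoraP2KO replicate 2 and at most 0.12 elsewhere. In bulk tissue, fewer cells of a type and less RNA per cell cannot be told apart.

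The promoters of 5 members are shown because these genes stand for the 2 patterns described next: Myh4 and Acta1 for skeletal muscle, Actc1, Myl7 and Nppa for heart muscle. Each sequence is the 250 bases before the annotated start, 5′ to 3′, from RefSeq, build GRCm38.p6. Promoters were found for 27 of the 32 genes, 33 windows in all. Both strands were searched for the CArG box, which serum response factor binds in many muscle genes, and for the site of MEF2, a muscle transcription factor. Capitals mark these matches. The CArG box was found in 4 of the 33 member windows (12.1%), those of Myh4, Acta1, Actc1 and Myl7, and in 1.47% of 32851 mouse windows of the same length. The MEF2 site was found in 5 of the 33 (15.2%), those of Mybpc3, Myh1, Myh4, Ttn and 1 of the 2 windows of Pvalb, and in 2.92% of all windows. The matches are a description of the letters and not sites shown to be used. The windows are chr11:67237562-67237811, plus strand for Myh4, chr8:123894776-123895025, minus strand for Acta1, chr2:114052876-114053125, minus strand for Actc1, chr11:5898783-5899032, minus strand for Myl7 and chr4:148000472-148000721, plus strand for Nppa.
Myh4: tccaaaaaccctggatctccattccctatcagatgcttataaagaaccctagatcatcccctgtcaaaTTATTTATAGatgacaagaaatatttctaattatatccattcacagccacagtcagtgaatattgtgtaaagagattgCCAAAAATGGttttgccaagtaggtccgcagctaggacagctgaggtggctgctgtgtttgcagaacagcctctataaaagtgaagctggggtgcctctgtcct
Acta1: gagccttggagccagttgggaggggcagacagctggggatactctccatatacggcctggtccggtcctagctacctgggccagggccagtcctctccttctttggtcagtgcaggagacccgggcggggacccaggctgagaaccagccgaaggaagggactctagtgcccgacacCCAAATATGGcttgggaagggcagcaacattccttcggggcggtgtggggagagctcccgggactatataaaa
Actc1: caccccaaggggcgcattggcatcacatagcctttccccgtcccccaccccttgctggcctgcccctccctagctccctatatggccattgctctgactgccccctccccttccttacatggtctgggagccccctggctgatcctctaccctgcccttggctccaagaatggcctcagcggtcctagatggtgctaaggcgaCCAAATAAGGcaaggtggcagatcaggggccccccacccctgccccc
Myl7: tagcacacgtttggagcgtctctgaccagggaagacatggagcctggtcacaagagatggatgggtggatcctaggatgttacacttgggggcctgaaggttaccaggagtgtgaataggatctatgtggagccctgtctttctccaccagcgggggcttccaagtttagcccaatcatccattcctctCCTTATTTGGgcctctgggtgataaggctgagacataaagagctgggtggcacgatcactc
Nppa: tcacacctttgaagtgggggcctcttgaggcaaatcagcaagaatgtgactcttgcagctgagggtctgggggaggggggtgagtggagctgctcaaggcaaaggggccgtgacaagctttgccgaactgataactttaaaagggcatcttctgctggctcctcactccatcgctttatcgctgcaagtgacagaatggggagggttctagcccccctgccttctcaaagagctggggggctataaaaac
In Myh4 the MEF2 match begins 182 bases and the CArG match 104 bases before the start. The CArG match begins 73 bases before the start in Acta1, 61 in Myl7 and 47 in Actc1. The Nppa window held neither of these letter patterns.

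Between the groups, 0 of the 31 members passed the test (limma, adjusted p under 0.05), where 0.00352% of the 28371 probe sets did. Their adjusted p-values ran from 0.651 to 0.997. At an unadjusted p under 0.05, 0 members were higher in RictoraP2KO arrays, against 3.85% of all probe sets, and 1 member, Myl1, was lower, against 3.42%. The ranges of the groups overlapped for all 31 members, while 2.08% of all probe sets lay wholly higher and 2.17% wholly lower in RictoraP2KO arrays. The median difference was 0.06 over the members and -0.003 over all probe sets, with 20 members above 0 and 11 below, where 48.7% of all probe sets lay above 0. The mean of each isoform class varied more between the arrays of a group than between the groups. This did not hold for every member, Myl1 being an exception. The results below turn on which arrays were high in which isoforms.

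RictoraP2KO replicate 2 was the highest array for 25 of the 31 members, where it was highest for 15.4% of all probe sets. In 13 members it stood at least 1 log2 unit above every other array, where 0.211% of all probe sets did so. The 13 were 6 fast genes, all 6 shared genes and Nppa. In the remaining 7 arrays the members split. The range over those 7 arrays was 1 or more for 11 members, against 4.61% of all probe sets: 4 heart genes, 3 atrial genes, 3 shared genes and Tnnc1. It reached at most 0.78 among the fast genes, 9 of which had a mean signal below the array median. Of the 7 heart and atrial genes with a range of 1 or more, all but Mybpc3 had a mean above it. The part of signal level in this contrast was not tested.

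**Figure D1:**
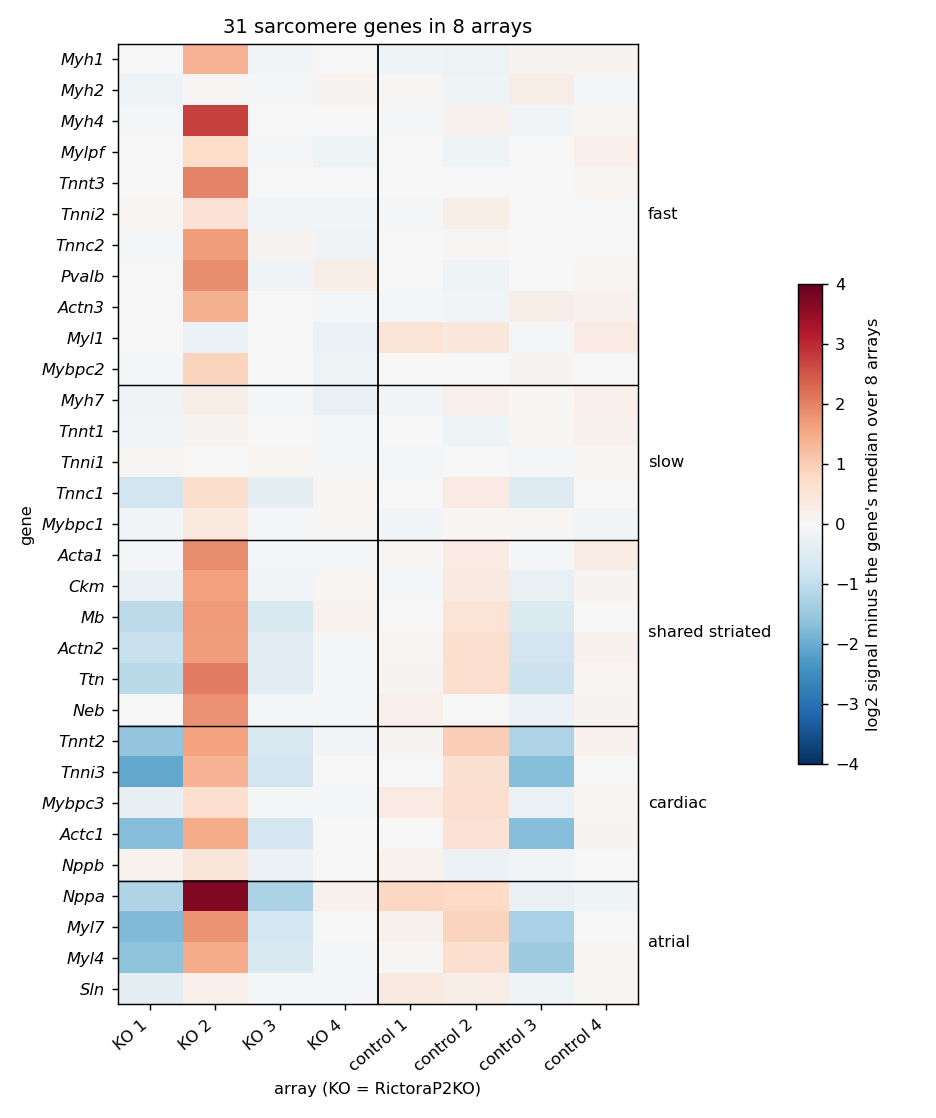
Log2 signal of each of the 31 genes (rows, by isoform class) in each of the 8 arrays (columns), minus the median of that gene over the 8 arrays. RictoraP2KO replicate 2 is the highest array for 25 of the 31 genes, and RictoraP2KO replicate 1 and control replicate 3 are the 2 lowest arrays for 4 of the 5 heart genes and 3 of the 4 atrial genes.

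Fast isoforms, with the exceptions of Myh2 and Myl1, stood highest in 1 array, RictoraP2KO replicate 2. Myh4, the myosin heavy chain of IIb fibres, stood at 2.13, 4.94, 2.21 and 2.21 in RictoraP2KO arrays and at 2.17, 2.37, 2.11 and 2.29 in control arrays. Replicate 2 of RictoraP2KO thus lay 2.73 above the median of the other 7 arrays, while those 7 arrays, of both groups, lay within 0.26 of each other. Those 7 signals lay well below the array median of 3.76 and were not shown to be above background, so the change in transcript may be larger than this difference. The group difference was 0.64 (SE 0.572; limma adjusted p = 0.837) and -0.05 without that array. Tnnt3, troponin T of fast fibres, stood at 3.68, 5.67, 3.68 and 3.70 in RictoraP2KO arrays and at 3.69, 3.69, 3.66 and 3.77 in control arrays. Here too replicate 2 was the only array set apart, by 1.98 from the median of the other 7, which spanned 0.11. The difference was 0.48 (SE 0.412; limma adjusted p = 0.830) with all arrays and -0.02 without it. Pvalb, the calcium buffer parvalbumin that speeds relaxation of fast fibres, stood at 2.07, 3.94, 1.96 and 2.36 in RictoraP2KO arrays and at 2.07, 1.89, 2.12 and 2.18 in control arrays. The groups overlapped, with a difference of 0.52 (SE 0.386; limma adjusted p = 0.800), or 0.07 without replicate 2.

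The other fast genes varied in how far they followed. Replicate 2 of RictoraP2KO exceeded the median of the other 7 arrays by 1.68 in Tnnc2, the fast troponin C, by 1.46 in Actn3, the alpha-actinin of fast Z-discs, and by 1.40 in Myh1, the heavy chain of IIx fibres. The excess was smaller, at 0.89, for Mybpc2, a fast myosin binding protein, at 0.74 for Mylpf, the fast regulatory light chain, and at 0.59 for Tnni2, the fast troponin I. Myh2, the heavy chain of IIa fibres, did not single that array out: it was 2.24, 2.45, 2.33 and 2.52 in RictoraP2KO arrays and 2.46, 2.25, 2.69 and 2.38 in control arrays. Of the 11 fast genes, 9 were highest in replicate 2 of RictoraP2KO, the exceptions being Myh2 and Myl1. The mean signals of 9 of the 11 lay below the array median of 3.76.

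Myl1, which encodes the essential light chains of fast muscle, behaved unlike the rest of its class. It stood at 7.99, 7.75, 8.01 and 7.78 in RictoraP2KO arrays and at 8.56, 8.43, 7.92 and 8.32 in control arrays. All 8 values lay above the array median, replicate 2 of RictoraP2KO was the lowest array, and control replicate 3 was the only control array within the range of the other group. The difference was -0.43 (SE 0.135, interval from -0.73 to -0.12 at the 95% level; limma unadjusted p = 0.0122, adjusted p = 0.651), the smallest unadjusted p of the members. Without replicate 2 of RictoraP2KO it was -0.38.

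**Figure D2:**
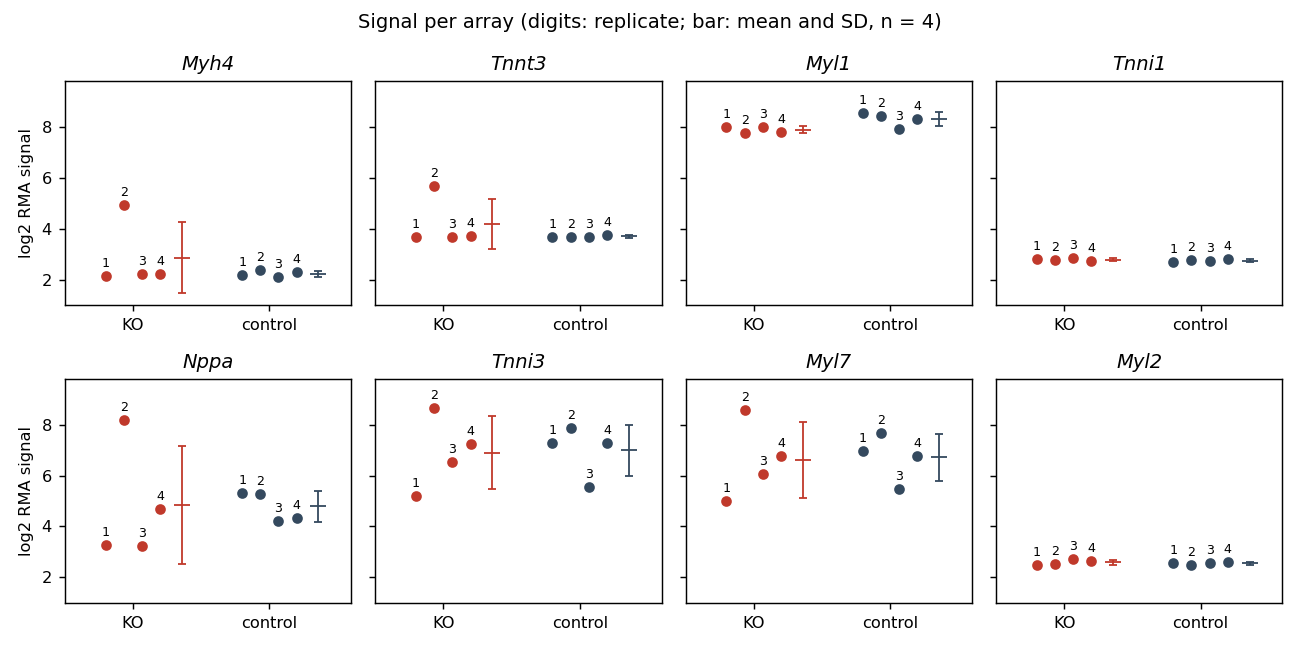
Log2 RMA signal of 7 members and of Myl2 in the RictoraP2KO arrays (KO, left) and the control arrays (right) of each panel. Points are arrays with their replicate number, and the bar is the mean with its SD (n = 4). Myh4 and Tnnt3 are high in RictoraP2KO replicate 2 alone, Nppa, Tnni3 and Myl7 vary across all arrays, and Tnni1 and Myl2 are flat.

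Slow isoforms showed little of either pattern, apart from Tnnc1. Tnnc1, the troponin C that slow fibres share with the heart, stood at 3.36, 4.80, 3.71 and 4.20 in RictoraP2KO arrays and at 4.09, 4.45, 3.58 and 4.13 in control arrays. Replicate 2 was highest and replicate 1 lowest, both in the RictoraP2KO group, and the difference between groups was -0.04 (SE 0.300; limma adjusted p = 0.983). Myh7, the heavy chain of slow fibres and of the fetal ventricle, stood at 3.04, 3.42, 3.12 and 2.87 in RictoraP2KO arrays and at 3.08, 3.37, 3.24 and 3.38 in control arrays. The 2 highest Myh7 values, 3.42 and 3.38, came from 1 array of each group, and the difference was -0.16 (SE 0.121; limma adjusted p = 0.812). Mybpc1, the slow myosin binding protein, stood at 1.96, 2.45, 2.03 and 2.11 in RictoraP2KO arrays and at 1.94, 2.13, 2.10 and 1.95 in control arrays, with replicate 2 of RictoraP2KO 0.42 above the median of the others. The slow troponins were flat: all 8 values lay between 2.70 and 2.84 for Tnni1, the slow troponin I, and between 2.54 and 2.87 for Tnnt1, the slow troponin T. Of the 5 slow genes, 3 were highest in replicate 2 of RictoraP2KO, where 15.4% of all probe sets were, and 0 had an excess of 1 or more in any array. The mean signals of 4 of the 5 lay below the array median, so flat values cannot show that slow transcripts were absent.

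The genes shared by striated muscles combined both patterns to differing degrees. Ttn, titin, stood at 3.46, 6.60, 4.12 and 4.47 in RictoraP2KO arrays and at 4.64, 5.21, 3.67 and 4.60 in control arrays. Its 8 arrays spanned 3.14, with replicates 1 and 2 of RictoraP2KO at the 2 ends. A second Ttn probe set ran in the same direction, from 2.82 in replicate 1 to 5.69 in replicate 2. The group difference was 0.14 (SE 0.619; limma adjusted p = 0.976), and -0.51 without replicate 2 of RictoraP2KO. Mb, myoglobin, the oxygen store of slow and heart muscle that brown fat also makes, stood at 5.30, 8.04, 5.72 and 6.47 in RictoraP2KO arrays and at 6.33, 6.89, 5.77 and 6.35 in control arrays. Actn2, the alpha-actinin of heart and skeletal Z-discs, stood at 4.31, 6.89, 4.79 and 5.15 in RictoraP2KO arrays and at 5.28, 5.86, 4.44 and 5.40 in control arrays. In both genes replicate 1 of RictoraP2KO was lowest, replicate 2 highest and control replicate 2 second, and the range over the 7 arrays without replicate 2 was 1.59 for Mb and 1.55 for Actn2.

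Neb, Acta1 and Ckm lay closer to the fast genes in their range over the 7 arrays without replicate 2 of RictoraP2KO. Neb, nebulin, whose main site is skeletal muscle, stood at 2.96, 4.80, 2.91 and 2.91 in RictoraP2KO arrays and at 3.18, 2.97, 2.73 and 3.06 in control arrays, a difference of 0.41 (SE 0.396; limma adjusted p = 0.845) that was -0.06 without replicate 2. Acta1, skeletal alpha-actin, was 5.74 in replicate 2 of RictoraP2KO and between 3.81 and 4.23 in the other 7 arrays. Ckm, muscle creatine kinase, was 6.18 there and between 4.24 and 4.89 in the other 7. Within that range Ckm kept the order of most heart genes. Control replicate 2 was second at 4.89, and RictoraP2KO replicate 1 and control replicate 3 were lowest at 4.29 and 4.24. The second probe set of Ckm did not follow, running from 2.24 to 2.74 with its highest value in control replicate 3.

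**Figure D3:**
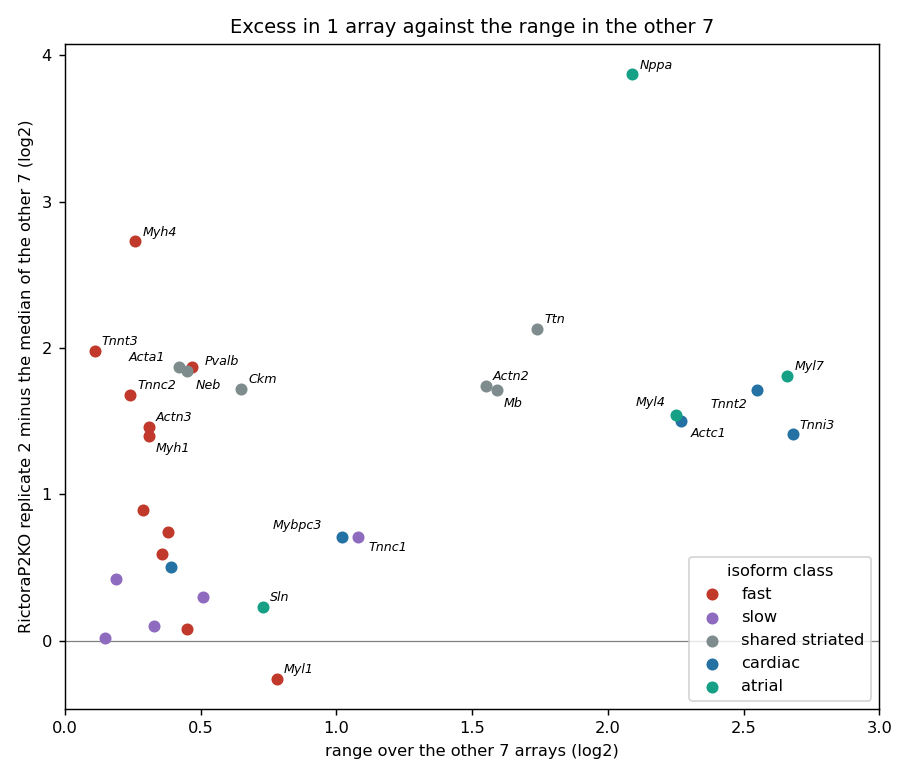
Each point is 1 of the 31 genes, coloured by isoform class. The vertical axis is the log2 signal in RictoraP2KO replicate 2 minus the median of the other 7 arrays, and the horizontal axis is the log2 range over those 7 arrays. Fast genes lie at the left with ranges of at most 0.78, while Tnnt2, Tnni3, Actc1, Myl4, Myl7 and Nppa lie to the right with ranges of 2.09 to 2.68.

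The heart genes were not confined to 1 array. Tnni3, the cardiac troponin I, stood at 5.19, 8.65, 6.53 and 7.24 in RictoraP2KO arrays and at 7.28, 7.87, 5.55 and 7.26 in control arrays. The highest and the lowest array differed 11.0-fold and both were RictoraP2KO arrays, which enclosed the whole control range. The difference was -0.09 (SE 0.724, interval from -1.73 to 1.55; limma adjusted p = 0.986). Tnnt2, the cardiac troponin T, stood at 6.11, 9.27, 7.04 and 7.56 in RictoraP2KO arrays and at 7.79, 8.66, 6.45 and 7.84 in control arrays. The same array was highest and the same array lowest, with a difference of -0.19 (SE 0.665; limma adjusted p = 0.970). Actc1, cardiac alpha-actin, stood at 6.67, 9.84, 7.69 and 8.34 in RictoraP2KO arrays and at 8.38, 8.93, 6.66 and 8.46 in control arrays. Here replicate 1 of RictoraP2KO and control replicate 3 were low by nearly the same amount, and the difference was 0.02 (SE 0.686; limma adjusted p = 0.995).

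Mybpc3, the cardiac myosin binding protein, had the same 2 lowest arrays in a narrower span, at 3.20, 4.20, 3.44 and 3.49 in RictoraP2KO arrays and 3.85, 4.21, 3.28 and 3.56 in control arrays. Nppb, which encodes B-type natriuretic peptide, stood at 2.59, 2.93, 2.20 and 2.45 in RictoraP2KO arrays and at 2.58, 2.20, 2.33 and 2.43 in control arrays. It did not follow the order of the heart genes, since replicate 1 of RictoraP2KO was its second highest array. Its difference was 0.16 (SE 0.150; limma adjusted p = 0.842).

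Of the 4 genes of atrial muscle, 3 varied widely between arrays. Nppa, which encodes atrial natriuretic peptide, stood at 3.29, 8.19, 3.24 and 4.67 in RictoraP2KO arrays and at 5.33, 5.29, 4.21 and 4.32 in control arrays. Replicate 2 lay 2.86 above the next array, the largest such excess of a named gene in that array, and the 8 arrays spanned 4.95. The difference was 0.06 (SE 0.991, interval from -2.19 to 2.30; limma adjusted p = 0.995), and -1.06 (limma unadjusted p = 0.0371, adjusted p = 0.824) without replicate 2. Myl7, the atrial regulatory light chain, stood at 5.01, 8.58, 6.06 and 6.78 in RictoraP2KO arrays and at 6.95, 7.66, 5.47 and 6.77 in control arrays. Myl4, the atrial essential light chain, stood at 6.52, 9.63, 7.54 and 8.10 in RictoraP2KO arrays and at 8.17, 8.77, 6.72 and 8.17 in control arrays. In both light chains the order from the top was replicate 2 of RictoraP2KO, then control replicate 2, and the 2 lowest were replicate 1 of RictoraP2KO and control replicate 3. Differences were -0.11 (SE 0.726) for Myl7 and -0.01 (SE 0.647) for Myl4. Sln, sarcolipin, which restrains the calcium pump in atria and some skeletal fibres, stood at 2.86, 3.42, 3.18 and 3.17 in RictoraP2KO arrays and at 3.59, 3.47, 3.06 and 3.26 in control arrays. It was highest in control replicate 1 and spanned 0.73, with a difference of -0.19 (SE 0.143; limma adjusted p = 0.806).

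The order of the arrays recurred across most of the heart and atrial genes. RictoraP2KO replicate 1 and control replicate 3 were the 2 lowest arrays for 13 of the 31 members, against 2.49% of all probe sets. Among them were 4 of the 5 heart genes, all but Nppb, and 3 of the 4 atrial genes, Myl7, Myl4 and Sln. The rest were Tnnc1, 3 shared genes (Ckm, Actn2 and Ttn) and 2 fast genes, Myh4 and Tnnt3. In those 2 fast genes the arrays other than RictoraP2KO replicate 2 spanned only 0.26 and 0.11, so their lowest ranks rest on small differences. Nppa departed from this order: its 2 lowest arrays were replicates 3 and 1 of RictoraP2KO, and control replicate 1 was second highest. Control replicate 2 was the second highest array for 16 members: 3 fast, 2 slow, 5 shared, 3 heart and 3 atrial genes. The share of all probe sets with that array second is not reported here, so this count has no background to be read against. The mean over the 4 atrial genes, each centred on its mean, was -1.25, 1.78, -0.66 and 0.01 in RictoraP2KO arrays and 0.34, 0.63, -0.81 and -0.04 in control arrays. The same mean over the 5 heart genes was -1.0, 1.22, -0.38 and 0.06 in RictoraP2KO arrays and 0.22, 0.62, -0.90 and 0.15 in control arrays. The fast genes instead had 1.03 in replicate 2 of RictoraP2KO and between -0.20 and -0.07 in the other 7 arrays. Control replicate 2, second in the heart genes, is the array with the lung signal of 2.59, and control replicate 3, among the lowest, is the one with the neuron signal of 1.24. The part of these tissues in the result was not tested.

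**Figure D4:**
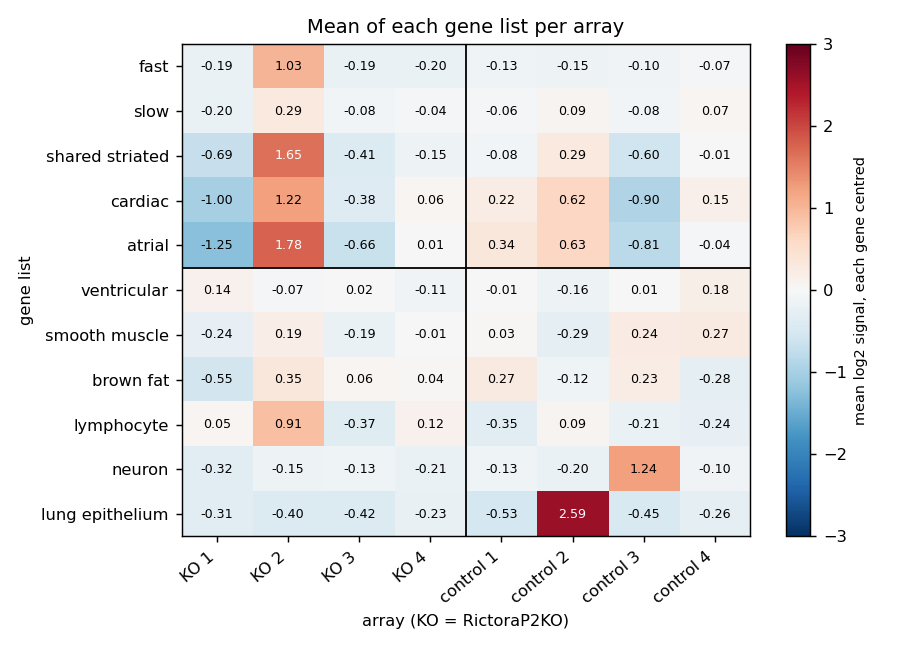
Mean log2 signal of each gene list (rows) in each array (columns), after each gene was centred on its mean over the 8 arrays. The top 5 rows are the isoform classes and the others are marker lists. Fast genes stand at 1.03 in RictoraP2KO replicate 2, atrial genes run from -1.25 to 1.78, and ventricular genes stay between -0.16 and 0.18.

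Genes of the ventricle, which are not members, showed neither pattern. Myl2, the regulatory light chain of ventricles and slow fibres, stood at 2.50, 2.53, 2.71 and 2.65 in RictoraP2KO arrays and at 2.58, 2.48, 2.58 and 2.60 in control arrays. Its essential partner Myl3 ran from 3.08 to 3.38 in RictoraP2KO arrays and from 3.31 to 3.62 in control arrays, a difference of -0.23 (SE 0.0918; limma adjusted p = 0.668). Irx4, a ventricular transcription factor, ran from 2.42 to 2.67 in RictoraP2KO arrays and from 2.35 to 2.64 in control arrays. Hey2, which is also made by arteries, was highest in replicate 1 of RictoraP2KO, at 5.16. Of the 4 ventricular genes, 0 were highest in replicate 2 of RictoraP2KO, where 15.4% of all probe sets were. The mean signals of 3 of the 4 lay below the array median, so their flat values cannot show that ventricular transcripts were absent.

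Of 33 other sarcomere genes measured, 17 were highest in replicate 2 of RictoraP2KO, 11 had replicate 1 of RictoraP2KO and control replicate 3 as the 2 lowest arrays, and 0 passed the test between groups. Myoz2, a Z-disc protein of heart and slow muscle, stood at 3.00, 6.26, 3.81 and 4.95 in RictoraP2KO arrays and at 4.46, 5.15, 3.09 and 4.69 in control arrays, which is the order of the heart genes. Smpx, a small muscle protein, was 5.00 in replicate 2 and Xirp2, a partner of actin at junctions, was 4.17 there, each at least 1.22 above the other arrays. Of 20 calcium handling genes, 13 were highest in that array, 2 had the same 2 lowest arrays, and 0 passed the test. Atp2a1, the calcium pump of fast fibres, was 6.11 in replicate 2 of RictoraP2KO and between 3.40 and 3.69 in the other 7. Pln, phospholamban, which restrains the pump of the heart, stood at 3.98, 7.25, 4.88 and 5.30 in RictoraP2KO arrays and at 5.85, 6.54, 4.50 and 5.72 in control arrays. Ryr2, the calcium release channel of the heart, had 3.46, 5.82, 3.72 and 4.08 in RictoraP2KO arrays and 5.42, 5.20, 4.55 and 4.33 in control arrays. Trdn, triadin, was wholly higher in RictoraP2KO arrays at 6.17 to 6.76 than in control arrays at 5.20 to 5.57. It did not pass (difference 1.26, SE 0.142, limma adjusted p = 0.116), and 2.08% of all probe sets lay wholly higher. These values are from the brightest of 19 Trdn probe sets, and the others are not reported here. The order of arrays in this Trdn probe set was neither that of the fast nor that of the heart genes.

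Of 13 energy genes of muscle, 6 were highest in replicate 2 of RictoraP2KO, and 0 passed the test between groups. Cox6a2, the respiratory chain subunit of heart and skeletal muscle, was 4.69, 7.09, 4.96 and 5.48 in RictoraP2KO arrays and 5.54, 6.19, 4.85 and 5.53 in control arrays. Ckmt2, mitochondrial creatine kinase, ran from 2.37 to 4.53 in RictoraP2KO arrays and from 3.00 to 4.01 in control arrays. Fabp3, the fatty acid binding protein of heart that brown fat also makes, had its highest value, 10.44, in control replicate 1. Pfkm, muscle phosphofructokinase, was lower by -0.36 (SE 0.143; limma adjusted p = 0.668). Of these genes, 4 had replicate 1 of RictoraP2KO and control replicate 3 as the 2 lowest arrays.

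Regulators of muscle formation and genes of the nerve contact showed neither pattern. Of 8 measured regulators 1 was highest in replicate 2 of RictoraP2KO, and their means per array lay between -0.04 and 0.04. Myod1, a master regulator of skeletal muscle, ran from 2.41 to 2.64 in RictoraP2KO arrays and from 2.34 to 2.75 in control arrays. Pax7, the mark of muscle stem cells, ran from 3.43 to 3.67 in RictoraP2KO arrays and from 3.29 to 3.42 in control arrays, a difference of 0.16 (SE 0.0701; limma adjusted p = 0.678), and Tbx1, a regulator of head muscle that brown fat also expresses, differed by -0.08. Of 9 genes of the neuromuscular junction 0 were highest in that array. The mean signals of 6 of the 8 regulators and 8 of the 9 junction genes lay below the array median. Their flat values therefore cannot show that these transcripts were absent. Chrnb1, an acetylcholine receptor subunit, differed by 0.22 (SE 0.0846; limma adjusted p = 0.668), Dok7, which helps to build the junction, by 0.14 and Colq, which anchors acetylcholinesterase, by -0.08. Among 10 heart regulators and channels, 6 were highest in replicate 2. Kcnj3, a potassium channel of atria, was 3.29, 5.29, 3.56 and 3.88 in RictoraP2KO arrays and 4.21, 4.94, 3.62 and 3.86 in control arrays. Tbx20, a heart transcription factor, was 4.27 in replicate 2 of RictoraP2KO and at most 3.41 elsewhere, and Tbx5, of the atria and lungs, was 6.47 there and at most 5.92 elsewhere. Hand1, another heart transcription factor, differed by -0.13 (SE 0.0882; limma adjusted p = 0.789).

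Smooth muscle genes, which mark the vessel wall, had an order of their own. Their mean was -0.24, 0.19, -0.19 and -0.01 in RictoraP2KO arrays and 0.03, -0.29, 0.24 and 0.27 in control arrays. Acta2, smooth muscle actin, ran from 7.89 to 8.56 in RictoraP2KO arrays and from 7.80 to 8.65 in control arrays. Cnn1, calponin, was lowest in control replicate 2, at 3.90, and highest in control replicates 3 and 4, at 5.73 and 5.74. Tagln, transgelin, was likewise lowest in control replicate 2, at 5.20, and highest in control replicate 3, at 6.30. Myh11, the smooth muscle heavy chain, differed by -0.27 (SE 0.149; limma adjusted p = 0.749). Control replicate 3, low in heart genes, was thus high in this list, and of the 10 genes 0 passed.

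Omitting RictoraP2KO replicate 2 turned the sign of many members. That array was the highest for 25 of the 31 members, so leaving it out lowers their differences by construction. The counts that follow are therefore not a separate result about the groups. With the other 3 RictoraP2KO arrays against the 4 control arrays, 26 of the 31 members lay below 0, where 50.4% of all probe sets did, and the median difference over the members was -0.11. The mean difference of the atrial genes was then -0.67, against -0.06 with all arrays, and that of the heart genes -0.46, against -0.05. Replicate 1 of RictoraP2KO, the lowest array of these genes, remained in that comparison. Without replicate 1 instead, the mean difference of the atrial genes was 0.34 and that of the heart genes 0.28. Without replicate 2, 3 members (Myl1, Myh7 and Nppa) were lower at an unadjusted p under 0.05, against 2.78% of all probe sets, and 0 were higher, against 3.27%. In limma 0 passed the adjusted threshold, where 0.00352% of all probe sets did.

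**Figure D5:**
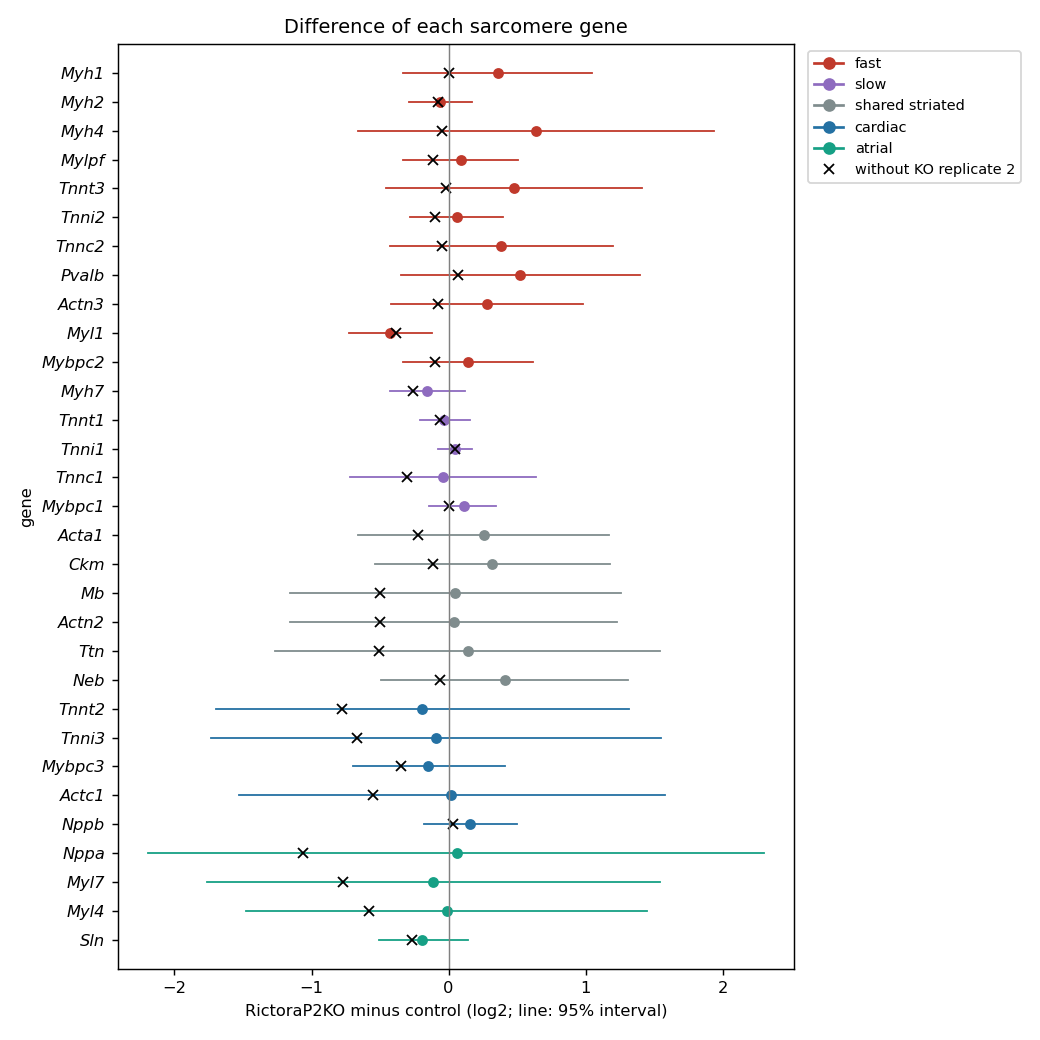
Difference between RictoraP2KO and control arrays for each of the 31 genes on the log2 scale, with its 95% interval from limma (line), coloured by isoform class. Crosses give the difference without RictoraP2KO replicate 2. Only the interval of Myl1, from -0.73 to -0.12, does not reach 0, and 26 crosses lie below 0.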

How the data were processed

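Mouse Gene 1.1 ST arrays, 1 per sample, gave the deposited table of log2 values for 28371 probe sets and 8 arrays. Per the submitters' processing notes the authors made these log2 values with RMA in Affymetrix Power Tools 1.10.2, which corrects background, normalises arrays to one distribution and summarises the probes of a set. A difference in total RNA between groups would therefore not be seen. Any pair of arrays correlated at 0.989 to 0.995 over the probe sets, which are not independent replicates. The annotation names 1 symbol for each of 21158 probe sets, while 1881 have more and 5332 have none. The probes' genome build was not given in the sources used here.

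Members and lists were chosen with earlier results of these data known. The groups were compared by limma's two-sided test (version 3.58.1, under R 4.3.3, functions lmFit and eBayes), with Benjamini-Hochberg adjustment over every probe set. The test was also run on simulated data, with an outcome that is not reported here. Every member is named; in each class the 3 with the largest standard deviation over arrays and the 1 with the smallest unadjusted p have every value printed. From each other list the 3 genes of largest range and the 1 with the smallest p were picked, and per array up to 12 genes that stood apart. Not all of those picked are named in the text. Dio2, Ppargc1a and Prdm16 of brown fat, Retn and Pparg of adipocytes, Nefm of neurons and several genes of single arrays were left out. Ucp1, Myl2 and the full values of Myh2, Mybpc3 and the list genes were added after they were seen. Classes were described without a test. Alternatives were a filter on dim probe sets, renewed quantile normalisation, limma-trend, weighting of arrays, a block for the replicate number, omission of each array and of 3 arrays, and the mean of all probe sets of a gene.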

Additional observations from a re-analysis of the deposited data

Results flagged for a closer look

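In the RictoraP2KO group, replicate 2 stood apart from the other 3 arrays by Dixon's test at the 95% level in 7 genes and 1 class mean. Myh4 was 4.94 in replicate 2, with 2.21 as the nearest array of the group. Tnnt3 was 5.67, with 3.70 nearest. Myh1, the IIx heavy chain, was 3.44, with 2.08 nearest. Tnnc2 was 4.08, with 2.50 nearest, and Actn3 4.30, with 2.90 nearest. The 2 genes shared by striated muscles were Acta1 at 5.74, with 3.85 nearest, and Neb at 4.80, with 2.96 nearest. The mean of the fast class was 1.03, with -0.19 nearest. These were 8 of 72 groups of 4 arrays examined, class means included, and chance gives about 1 in 20 among independent groups. The members were chosen with earlier results of these data known, and class means are made of the same genes. The count therefore cannot be measured against that rate. All 8 concern the same array, and the genes are not independent of each other within it.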

How the results depend on the processing

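No member passed the adjusted threshold in limma under any setting: 0 of 31 in each, or 0 of the 14 that a filter on dim probe sets left. Renewed quantile normalisation, limma-trend, the dim filter and the mean of all probe sets turned no member's sign. The replicate number as a block turned none and changed no call, with Myl1 at -0.43 (limma adjusted p = 0.82). Same-numbered arrays correlated in their deviations at -0.154 to 0.087, and 0 of 8 arrays correlated best with its own number. The correlations gave no sign that the numbers pair the samples, but with 4 arrays per group they cannot exclude it. Members lower at an unadjusted p under 0.05 numbered 1 with all arrays, 1 to 3 when 1 array was left out (3 without RictoraP2KO replicate 2: Myl1, Myh7 and Nppa), and 2 (Myl1 and Actn2) without RictoraP2KO replicate 2, control replicate 2 and control replicate 3 together. Without those 3 arrays 16 differences turned sign: Myh4 -0.05, Mylpf -0.20, Tnnt3 -0.05, Tnni2 -0.01, Tnnc2 -0.04, Actn3 -0.08, Mybpc2 -0.07, Acta1 -0.22, Ckm -0.10, Mb -0.51, Actn2 -0.59, Ttn -0.60, Neb -0.20, Actc1 -0.86, Nppb -0.09, Nppa -1.10. With array weights 6 did: Tnni2 -0.02, Mb -0.11, Actn2 -0.14, Ttn -0.07, Actc1 -0.14, Nppa -0.25. Differences that turned sign when 1 array was left out ranged as follows: Myh2 -0.12 to 0.02, Myh4 -0.05 to 0.89, Mylpf -0.11 to 0.19, Tnnt3 -0.02 to 0.64, Tnni2 -0.10 to 0.13, Tnnc2 -0.05 to 0.56, Actn3 -0.08 to 0.41, Mybpc2 -0.10 to 0.26, Tnnt1 -0.09 to 0.03, Tnnc1 -0.30 to 0.18, Acta1 -0.22 to 0.42, Ckm -0.11 to 0.52, Mb -0.50 to 0.41, Actn2 -0.50 to 0.36, Ttn -0.51 to 0.53, Neb -0.06 to 0.57, Tnnt2 -0.78 to 0.27, Tnni3 -0.67 to 0.48, Mybpc3 -0.35 to 0.02, Actc1 -0.55 to 0.51, Nppa -1.06 to 0.59, Myl7 -0.77 to 0.42, Myl4 -0.58 to 0.46. The cause of these reversals was not tested. The 4 arrays per group and dim signals limit what can be seen: 17 of the 31 members had mean signals below the array median.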

Other observations

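Genes outside the sarcomere also stood at least 1 log2 unit above every other array in single arrays. Counting all genes, RictoraP2KO replicate 2 had 60 probe sets this far above every other array, 13 of them members, and 7, 0 and 6 were found in RictoraP2KO replicates 1, 3 and 4. The non-members in RictoraP2KO replicate 2 included further muscle genes, among them Atp2a1, Xirp2, Smpx, Myoz1, Myoz2 and Myot. Control replicates 1, 2, 3 and 4 had 10, 30, 17 and 5, with 0 members among them. In RictoraP2KO replicate 2 the largest excesses outside muscle were those of Mthfd2, an enzyme of mitochondrial folate metabolism, at 2.13, Scd3, a fatty acid desaturase, at 2.05, Lrrc52 at 2.04, Ighm, the heavy chain of immunoglobulin M, at 1.93, Trib3 at 1.83, Pla2g2e at 1.67 and Atf3, a stress transcription factor, at 1.61. Cd79a and Cd79b, the B cell receptor partners, were also highest there, at 5.95 and 6.04.

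Control replicate 2 held lung genes: Sftpc, surfactant protein C, was 9.20 there and between 1.77 and 1.92 in the other 7 arrays. Sftpa1, Sftpb and Sftpd, other surfactant proteins, were 8.05, 7.07 and 4.20 there. Control replicate 3 held genes of sympathetic neurons, with 5.86 for Dbh and 5.71 for Th, both enzymes of noradrenaline synthesis, and 5.79 for Snap25 of the synapse. Control replicate 1 held Pth, parathyroid hormone, with an excess of 4.11. In RictoraP2KO replicate 1 Lep, leptin, was 5.81, and Elovl3, an elongase of brown fat, was 6.84, its lowest array.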
